A study of Mus musculus with 194 samples.

Results

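The loci of the 4 AMPA receptor subunit genes, Gria1, Gria2, Gria3 and Gria4, were examined for transposon insertions recorded in mouse brain by calling cards. Each locus was the gene body in GRCm38 (mm10) with 10 kb on each side, and the members are all 4 such genes out of 21631 protein-coding genes in the gene table. Together they held 32677 of the 21125080 insertions in the tables of 46 animals, or 1547 in every 1000000, and 218 further insertions in N2a, a mouse neuroblastoma cell line. In calling cards a transposase leaves a reporter transposon at TTAA sequences, either where it reaches the genome unaided or where a DNA-binding protein joined to it takes it, and the insertions in a locus are a record of those events. An insertion here is 1 line of a deposited table. Levels are given in IPM, insertions per 1000000 insertions of the same table, and changes are log2 ratios of the group named first over the group named second.

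All animals received adeno-associated virus at birth or 1 day later. C57bl6J mice (2 animals) were given Cre-independent viruses, and their insertions were read from the RNA that the self-reporting transposon (SRT) makes. BrokenHeart mice (3 animals) carry the DNA version of the assay, in which insertions were recovered from genomic DNA by inverse PCR. The remaining groups were RNA-read and are labelled by Cre line. They are Syn1Cre and Syn1CreNeg with 6 animals each, GFAPCre and GFAPCreNeg with 6 each, and Frontflip_GFAPCre and Frontflip_GFAPCreNeg with 3 each. Rbp4Cre_TRAP has 4 animals, and the Syn1Cre animals labelled SP1 number 4 at P28 and 3 at P10. Syn1 and GFAP are promoters used to drive Cre in neurons and in astrocytes, Rbp4Cre marks deep-layer cortical neurons, and SP1 is a transcription factor that binds GC-rich promoters. The labels neither name the transposase nor describe the Frontflip or SP1 constructs, and they give an age only for the SP1 groups. Cortex was used except for Rbp4Cre_TRAP, which came from whole forebrain.

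AMPA receptors are tetramers of the GluA1 to GluA4 subunits that these genes encode, and they carry most fast excitatory transmission between neurons. Gria2 encodes GluA2, whose edited RNA makes the channel nearly impermeable to calcium. Gria1 encodes GluA1, a subunit delivered to synapses during plasticity, Gria3 encodes GluA3, a common partner of GluA2, and Gria4 encodes GluA4, a subunit prominent in parvalbumin interneurons and in the young brain. Astrocytes also transcribe some of these genes, Gria2 among them.

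The bodies lie on chromosome 11 from 57011571 to 57330244 (Gria1), chromosome 3 from 80681450 to 80804227 (Gria2), chromosome X from 41400819 to 41678601 (Gria3) and chromosome 9 from 4417893 to 4796234 (Gria4). Most insertions fell inside the bodies: 97.6% for Gria1, 91.9% for Gria2, 98.2% for Gria3 and 96% for Gria4. Exons and introns were not annotated here. A lncRNA gene, Gm46101, lies inside Gria4 and shared 131 of its insertions, Gm46100 in its flank held 149, and a pseudogene, Gm14614, in the flank of Gria3 held 4. RefSeq promoter sequences (GRCm38.p6) were matched for 2 of the 4 members, Gria2 and Gria4, both on the minus strand. They are shown because SP1, named in the labels of 2 groups, is known to bind promoters and because no insertion of any brain group lay in the window from 250 bases before to 50 bases after either start. The 250 bases upstream of each start are printed 5′ to 3′ with CG dinucleotides in capitals, from chr3:80802836-80803085 for Gria2 and from chr9:4796235-4796484 for Gria4.
Gria2: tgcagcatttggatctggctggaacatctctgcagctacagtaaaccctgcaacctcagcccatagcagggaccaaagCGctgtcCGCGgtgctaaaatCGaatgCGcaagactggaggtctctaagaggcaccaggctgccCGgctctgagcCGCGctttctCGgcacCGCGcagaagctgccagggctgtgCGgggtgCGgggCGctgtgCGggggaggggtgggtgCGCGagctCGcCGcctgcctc
Gria4: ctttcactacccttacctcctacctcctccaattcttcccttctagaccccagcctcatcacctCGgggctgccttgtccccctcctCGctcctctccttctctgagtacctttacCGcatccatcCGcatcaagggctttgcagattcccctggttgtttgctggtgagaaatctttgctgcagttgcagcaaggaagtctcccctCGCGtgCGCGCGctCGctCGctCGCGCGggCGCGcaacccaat
Gria2 had 19 CG dinucleotides and Gria4 had 16 in these windows, against a median of 6 over 32851 promoters of the same length. TTAA, which reads the same on both strands, was in neither window and in 49% of all promoters. Without a TTAA these 250 bases offered no insertion site, so the lack of insertions there carries no further information. The GC box GGGCGG, searched on both strands (as GGGCGG or CCGCCC), was in neither and in 32.7% of all promoters. These matches describe the letters of these windows only.

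Depth differed widely between groups, from 1545951 to 2186743 insertions per table in C57bl6J down to 42511 to 98197 in BrokenHeart, 24408 to 57014 in Rbp4Cre_TRAP and 2341 to 9601 in Frontflip_GFAPCreNeg. In 1 of the Frontflip_GFAPCreNeg tables all 4 loci had 0 insertions, which at its depth allows up to 1282 IPM (3 counts). Pools were inferred here: animals with libraries listed in the same sample of the series, directly or through other animals, were taken as the same pool. Groups were spread over different pools of this kind. Only GFAPCre against GFAPCreNeg, Frontflip_GFAPCre against Frontflip_GFAPCreNeg and SP1 at P28 against P10 had pools holding animals of both groups. In every other comparison pool and group cannot be told apart. Syn1Cre animal 5 stood apart from its group: the summed level over the loci of 19 astrocyte marker genes was 3540 IPM there and 1177 to 1538 in the other 5 animals. Results that change without that animal are given with both values.

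**Figure D1:**
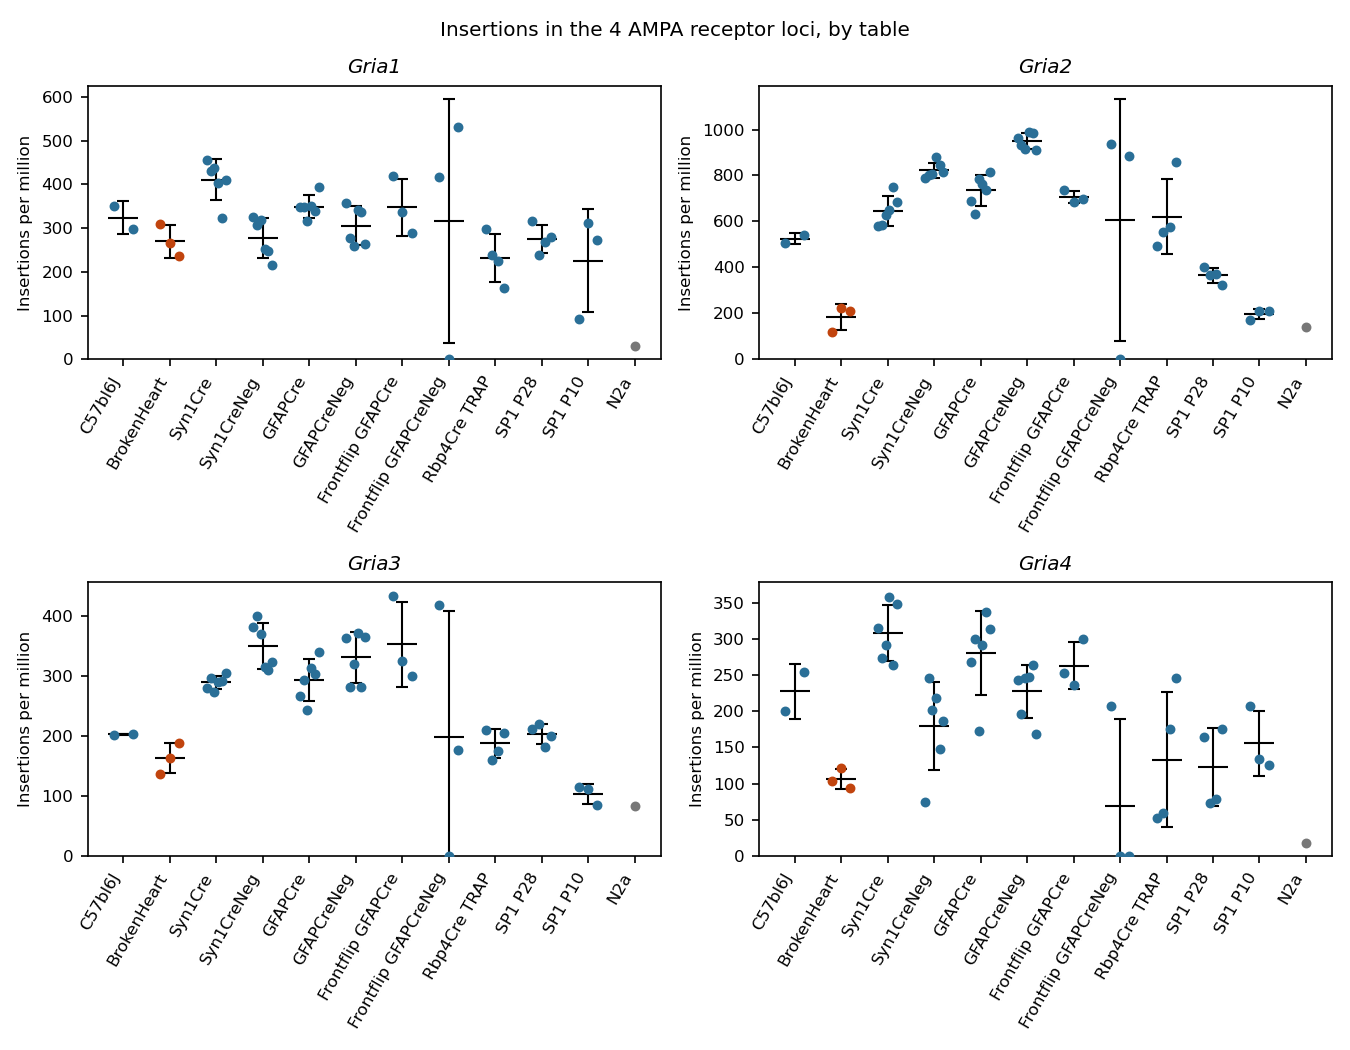
IPM (insertions per 1000000 insertions) in each locus, by group; each point is 1 table, and bars give the mean and SD of groups. Gria2 spans the widest range, from 950 IPM in GFAPCreNeg to 185 in BrokenHeart, and N2a is the single grey point.

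Gria2 was the most heavily hit of the 4 loci relative to its length and also the one that differed most between groups. Per kb, the mean level of Gria2 in C57bl6J was 3.68 ± 0.166 IPM (SD, n = 2), against 0.957 ± 0.108 for Gria1, 0.680 ± 0.000285 for Gria3 and 0.572 ± 0.0951 for Gria4. On that per-length scale Gria2 exceeded 99.7% of all protein-coding loci in C57bl6J and in Syn1Cre and 99.8% in GFAPCre, but 93.4% in BrokenHeart and 83% in SP1 at P10. Gria4 exceeded 76.2% of loci in C57bl6J and 43.3% in BrokenHeart. The order Gria2, Gria1, Gria3, Gria4 per kb was found in both C57bl6J tables and in 5 of the 6 Syn1Cre tables, whereas Gria3 came before Gria1 in all 6 Syn1CreNeg tables.

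The level of the whole Gria2 locus was highest in GFAPCreNeg at 950 ± 33.8 IPM (SD, n = 6) and next in Syn1CreNeg at 823 ± 33.3 (n = 6). It was 736 ± 66.8 in GFAPCre (n = 6), 706 ± 25.9 in Frontflip_GFAPCre (n = 3), 647 ± 65.1 in Syn1Cre (n = 6), 620 ± 164 in Rbp4Cre_TRAP (n = 4) and 525 ± 23.7 in C57bl6J (n = 2). The lowest levels were 365 ± 32.6 in SP1 at P28 (n = 4), 198 ± 22 in SP1 at P10 (n = 3) and 185 ± 56.8 in BrokenHeart (n = 3). Of neighbours in this order, only GFAPCreNeg and Syn1CreNeg, C57bl6J and SP1 at P28, and SP1 at P28 and P10 had tables that did not overlap. Frontflip_GFAPCreNeg, at 937, 0 and 883 IPM on 9, 0 and 5 insertions, could not be placed.

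The other 3 loci spread less. Gria1 ran from 410 ± 46.7 IPM in Syn1Cre (n = 6) to 226 ± 117 in SP1 at P10 (n = 3), and each group overlapped the next in the order. Gria3 ran from 352 ± 71 in Frontflip_GFAPCre (n = 3) to 103 ± 17.1 in SP1 at P10 (n = 3); the only neighbours without overlap were Syn1Cre and SP1 at P28, and BrokenHeart and SP1 at P10. Gria4 ran from 309 ± 38.6 in Syn1Cre (n = 6) to 106 ± 14.4 in BrokenHeart (n = 3), with Frontflip_GFAPCreNeg lower still on 2 insertions, and all neighbours overlapped. Across the 10 brain groups with at least 10000 insertions in every table, the group means of Gria2 and Gria3 correlated with r = 0.88 and those of Gria1 and Gria2 with r = 0.52 (log2 scale, a description over groups that differ in depth and construct).

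**Figure D2:**
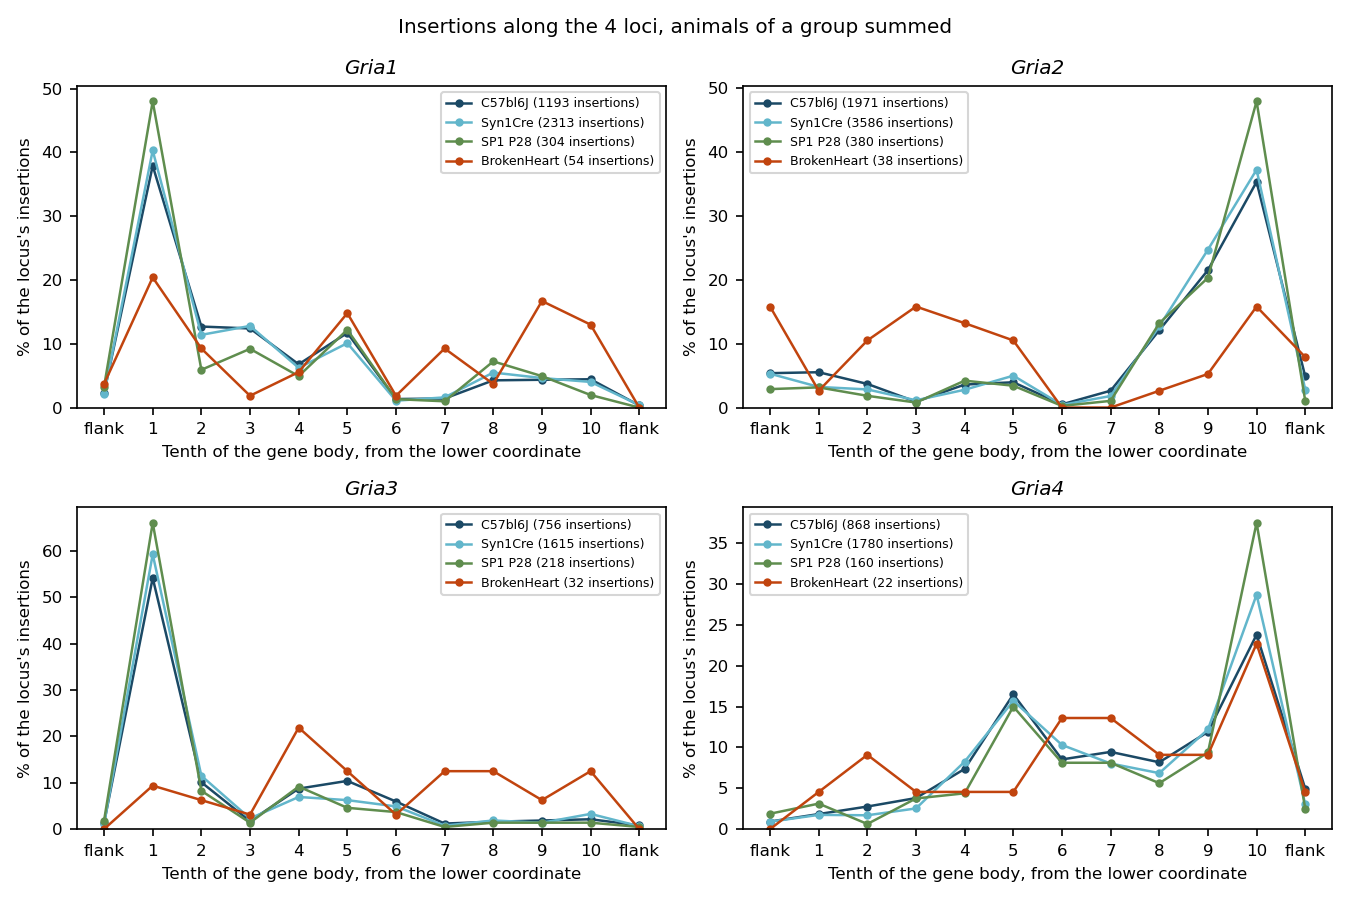
Share of each locus's insertions in its flanks and in each 10% of the gene body, from the lower coordinate, for 4 groups with animals summed. The RNA-read groups pile up in the first 10% of Gria1 and Gria3 and in the last 10% of Gria2 and Gria4, and BrokenHeart is spread more evenly on far fewer insertions.

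Insertions were concentrated at one end of each gene. In tables with at least 20 insertions in the locus, the first 10% of the Gria1 body held 37.8% ± 1.67 of the locus's insertions in C57bl6J (n = 2) and 41.5% ± 4.08 in Syn1Cre (n = 6), and the first 10% of Gria3 held 54.9% ± 5.11 and 60.9% ± 6.3. In the minus-strand genes the heap lay at the upper-coordinate end, where transcription starts. The last 10% of Gria2 held 35.9% ± 3.96 in C57bl6J (n = 2) and 37.5% ± 3.37 in Syn1Cre (n = 6), and that of Gria4 held 24% ± 0.649 and 29.6% ± 3.38. In SP1 at P28 these end segments held 46.7% ± 2.78 (Gria1, n = 4), 48.5% ± 2.52 (Gria2, n = 4) and 67.6% ± 5.73 (Gria3, n = 4).

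Single positions recurred from animal to animal. The position hit in most brain tables lay in Gria2 at chr3:80799305-80799308, with 400 insertions in 40 tables, 4.92 kb inside the upper end of the gene body. In Gria4 it was chr9:4793433-4793436, with 200 insertions in 39 tables, 2.80 kb inside the upper end. In Gria3 it was chrX:41402520-41402523, with 200 insertions in 36 tables, and in Gria1 chr11:57020066-57020069, with 133 insertions in 37 tables. These 4 positions were chosen for recurring in tables that are nearly all RNA-read. They held 1.84%, 2.82%, 3.44% and 3.68% of the brain insertions in Gria1 to Gria4. BrokenHeart had no insertion at any of them, on 54, 38, 32 and 22 insertions in those loci. With that choice and those counts, the lack does not compare the readouts. Of the 131 positions that BrokenHeart hit in the 4 loci, 55 (42%) were also hit in C57bl6J and 93 (71%) in some other brain table. Over all loci, 78.0% to 79.4% of the insertions of a BrokenHeart table met a position of the RNA-read tables, with N2a included. The overlap is therefore no particular trait of these loci.

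**Figure D3:**
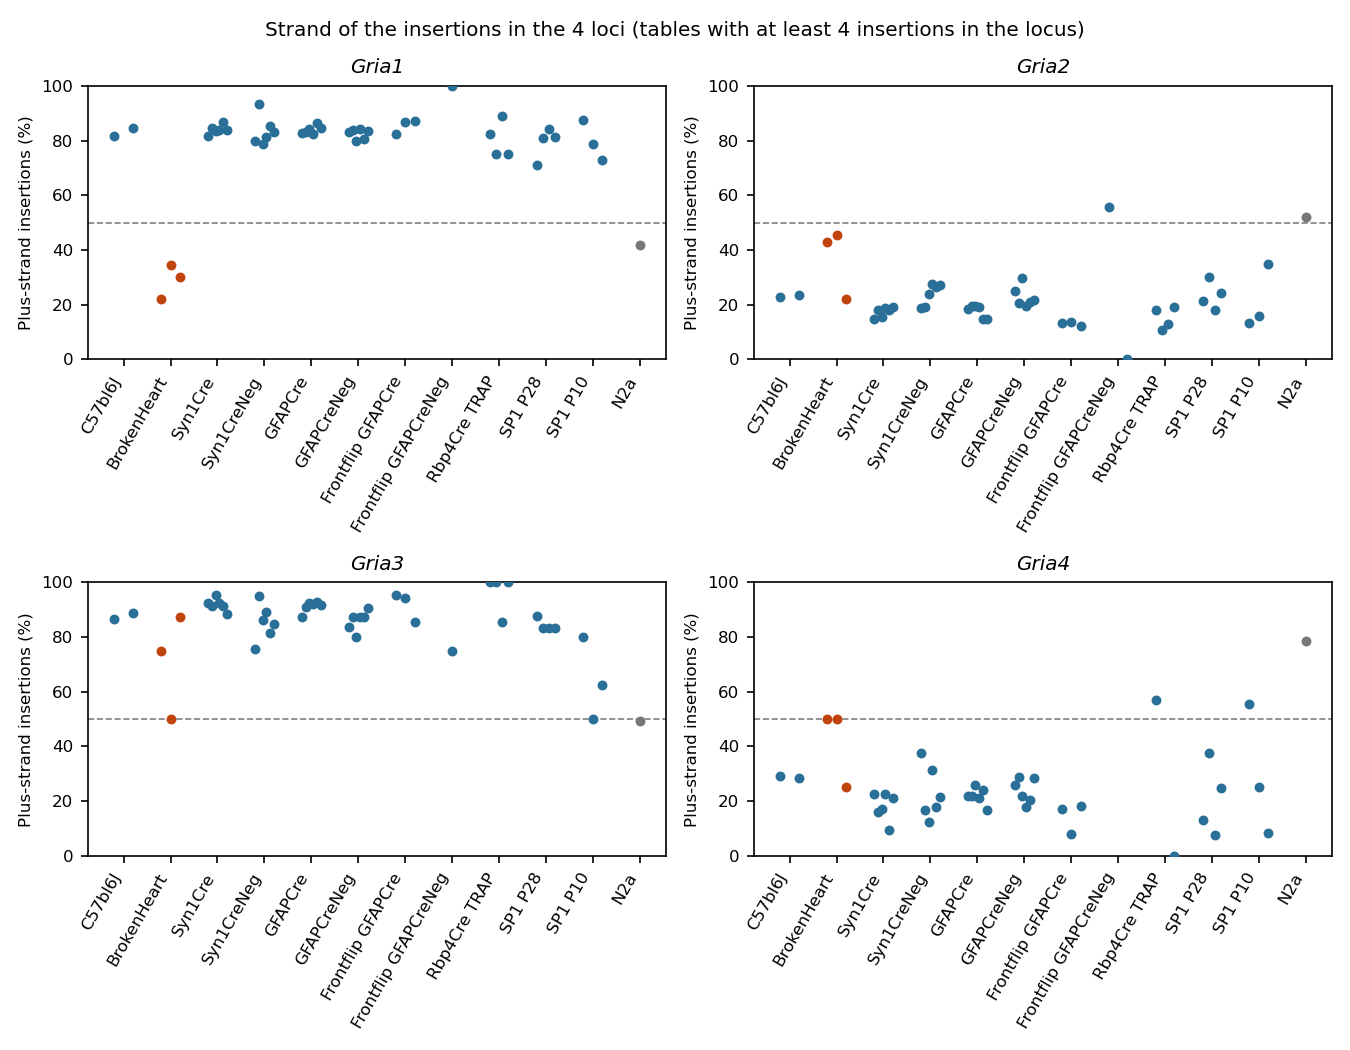
Percentage of insertions on the plus strand in each locus; each point is 1 table with at least 4 insertions in the locus, and the dashed line marks 50%. RNA-read brain tables lie mostly above the line in Gria1 and Gria3 and below it in Gria2 and Gria4, and the 3 BrokenHeart tables of Gria1 lie below 50%.

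Within each locus the RNA-read insertions lay mostly on one strand. In Gria2, a minus-strand gene, 76.9% ± 0.426 of the C57bl6J insertions (n = 2) and 82.7% ± 1.72 of the Syn1Cre insertions (n = 6) were on the minus strand. In Gria4, also a minus-strand gene, the minus share was 71.2% ± 0.632 in C57bl6J (n = 2) and 81.8% ± 5.1 in Syn1Cre (n = 6). For these 2 genes, whose strand the promoter table gives, the excess was therefore on the strand of the gene. In Gria1 the plus share was 83.1% ± 1.99 in C57bl6J (n = 2) and 84.1% ± 1.65 in Syn1Cre (n = 6), and in Gria3 it was 87.8% ± 1.67 and 92% ± 2.27; the strands of these genes are not in the tables used here. Over 17274 loci with a known strand, 50.6% of the C57bl6J insertions and 49.6% of the Syn1Cre insertions were on the gene's strand. Among loci with at least 200 insertions in the group, the share of Gria2 on its own strand exceeded that of 98.1% of loci in C57bl6J and 99.1% in Syn1Cre, and that of Gria4 94.7% and 98.6%. Counting each position and strand once, the C57bl6J plus share of Gria1 was 73.5% and that of Gria2 35.5%, so the skew was smaller but in the same direction.

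As strands are named in the tables, BrokenHeart was reversed at Gria1 only. In the other loci its mean excess was smaller but on the same side as in C57bl6J. In Gria1 the plus share was 22.2% to 34.6% in the 3 BrokenHeart tables (28.9% ± 6.26, n = 3), on 54 insertions, against 81.7% and 84.5% in the C57bl6J tables. The other loci had fewer BrokenHeart insertions: the minus share of Gria2 was 63.2% ± 12.7 (n = 3, 38 insertions), the plus share of Gria3 70.8% ± 19.1 (n = 3, 32 insertions), and the minus share of Gria4 58.3% ± 14.4 (n = 3, 22 insertions). Across loci the strand balance of C57bl6J was compared with that of Syn1Cre, GFAPCre and BrokenHeart. Over 2759 loci with at least 200 C57bl6J insertions and at least 40 in the other group, the plus share correlated between C57bl6J and Syn1Cre with r = 0.95, between C57bl6J and GFAPCre with r = 0.94, and between C57bl6J and BrokenHeart with r = -0.13 over 610 loci, a description across loci of the summed animals. The plus shares of those 610 loci had an SD of 12.2 percentage points in C57bl6J and of 6.94 in BrokenHeart, where counting alone would give 6.31. Gria1 was extreme among them, with a lower BrokenHeart plus share in only 0.164% of these loci. The labels do not say whether the DNA-read and RNA-read tables name strands by the same convention.

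**Figure D4:**
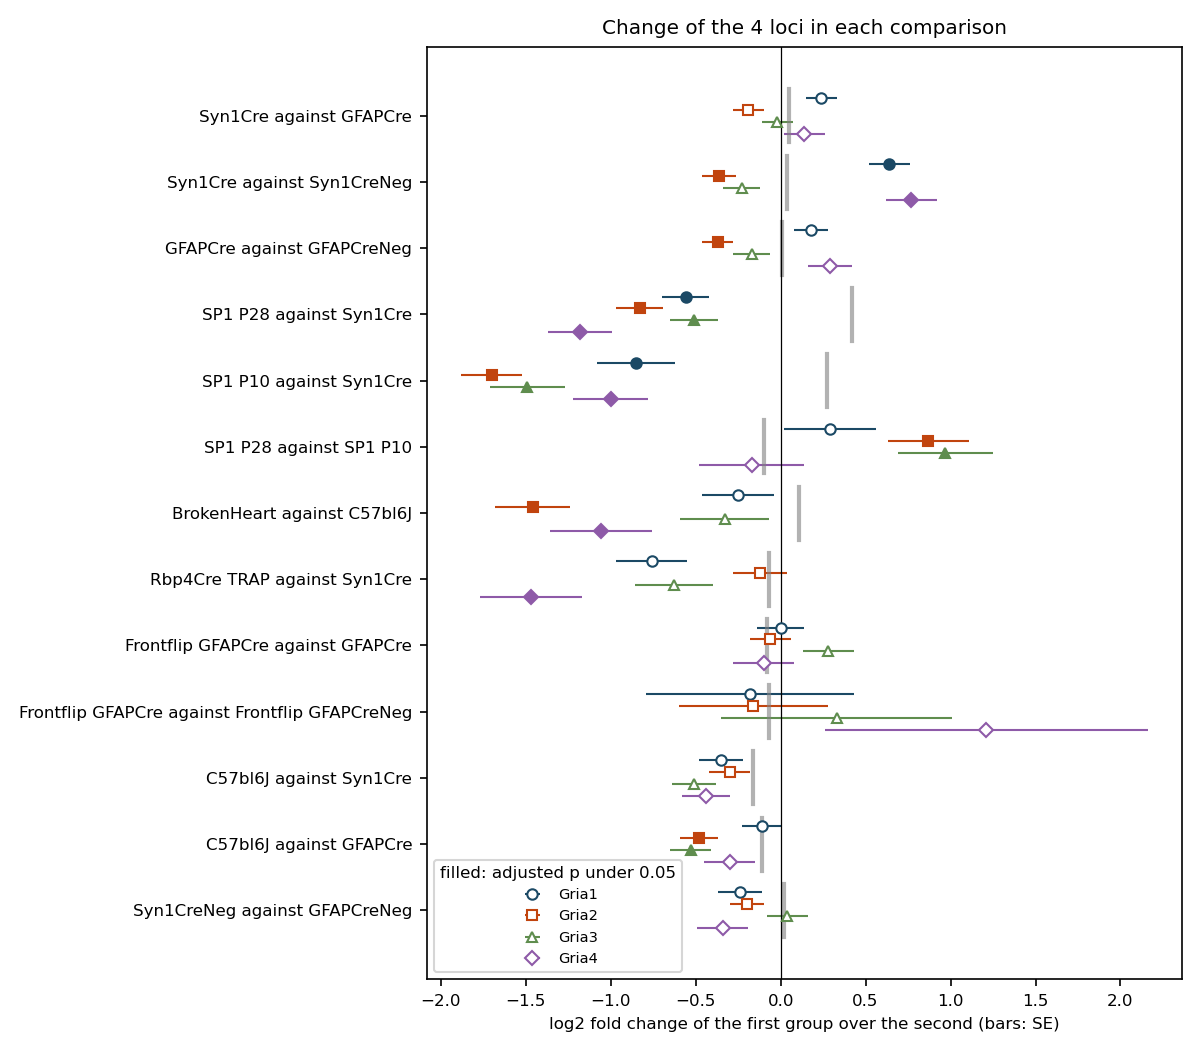
Log2 fold change of each locus in the 13 comparisons, with its SE. Filled symbols have an adjusted p under 0.05, and the grey bar marks the median log2 fold change of all loci tested; all 4 loci lie to the left of the bar in both SP1 comparisons with Syn1Cre.

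DNA-read BrokenHeart was compared with RNA-read C57bl6J to see whether the 2 readouts recover the 4 loci alike. Gria2 fell by 1.46 on the log2 scale (SE 0.22, edgeR adjusted p = 1.16e-06): its levels were 120, 224 and 212 IPM in BrokenHeart and 508 and 542 in C57bl6J, and the groups did not overlap. Gria4 fell by 1.06 (SE 0.30, edgeR adjusted p = 0.00431), from 201 and 255 to 103, 122 and 94.1 IPM. Without C57bl6J replicate 2 the Gria4 change was -0.87 (edgeR adjusted p = 0.0973), a fit in which the lone C57bl6J animal is assumed to vary like the BrokenHeart animals. Gria1 (-0.25, SE 0.21, edgeR adjusted p = 0.356) and Gria3 (-0.33, SE 0.26, edgeR adjusted p = 0.304) did not pass. The call was common in this comparison: 746 of 1879 loci passed (39.7% of loci tested), 393 higher and 353 lower, with a median of 0.11. Gria2 took 41% ± 1.06 of the 4 loci's insertions in C57bl6J (n = 2) and 25.3% ± 6.38 in BrokenHeart (n = 3).

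By strand, an alternative chosen after the strand shares had been seen, the levels are given here as a description. Fits on each strand alone were also run, and what they changed is given with the other alternatives below. On the plus strand Gria1 had 269 ± 24 IPM in C57bl6J (n = 2) and 77 ± 12.8 in BrokenHeart (n = 3), and on the minus strand 55.1 ± 12.6 and 193 ± 41.4. Gria2 had 404 ± 16 and 119 ± 48.1 on the minus strand, the strand of the gene, and 121 ± 7.7 and 66.8 ± 30.4 on the plus strand. Gria3 had 178 ± 3.45 and 116 ± 43.2 on the plus strand and 24.8 ± 3.37 and 46.4 ± 30.8 on the minus strand. Gria4 had 162 ± 28.4 and 61.1 ± 9.54 on the minus strand, the strand of the gene, and 65.6 ± 9.47 and 45.4 ± 19.5 on the plus strand. If the DNA-read tables name strands the other way, the values to set side by side are 269 against 193 and 55.1 against 77 for Gria1, 404 against 66.8 and 121 against 119 for Gria2, and 178 against 46.4 and 24.8 against 116 for Gria3. For Gria4 they are 162 against 45.4 and 65.6 against 61.1. In addition, 3 of 5 astrocyte marker loci tested were higher in BrokenHeart, and their summed level over 19 loci was 1466 to 2329 IPM against 998 to 1077 in C57bl6J, with Apoe at 0 in BrokenHeart. The neuron marker loci summed to 3152 to 3758 in BrokenHeart against 4869 to 5076. Their part in the result was not tested, nor was that of the pools, the construct or the depth.

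The 2 Cre lines did not differ detectably at any of the 4 loci with all animals. In Syn1Cre against GFAPCre the log2 changes were 0.24 for Gria1 (SE 0.09, edgeR adjusted p = 0.180), -0.19 for Gria2 (edgeR adjusted p = 0.292), -0.02 for Gria3 (edgeR adjusted p = 0.944) and 0.14 for Gria4 (edgeR adjusted p = 0.581), and 278 of 11553 loci passed (2.41%). Gria1 ranged from 323 to 456 with a median of 420 IPM in Syn1Cre and from 315 to 393 with a median of 348 in GFAPCre, and the groups overlapped. Without Syn1Cre animal 5, the animal with high astrocyte marker loci, the Gria1 change was 0.29 (edgeR adjusted p = 0.0334), and 830 loci passed in all. With Syn1Cre animals 1 to 3 only, Gria1 (0.34, edgeR adjusted p = 0.0183) and Gria2 (-0.30, edgeR adjusted p = 0.0386) passed, as did 1837 loci in all. Of the marker loci in this comparison, 6 of 19 neuron markers were higher and 1 of 18 astrocyte markers was lower in Syn1Cre.

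Each Cre group was then compared with its Cre-negative group, which asks how the loci differ where the labels give no Cre. In Syn1Cre against Syn1CreNeg, Gria4 rose by 0.77 (SE 0.15, edgeR adjusted p = 0.000213) and Gria1 by 0.64 (SE 0.12, edgeR adjusted p = 0.000232), while Gria2 fell by 0.36 (SE 0.10, edgeR adjusted p = 0.00673). Gria4 ranged from 264 to 358 (median 304) IPM in Syn1Cre and from 74.4 to 246 (median 194) in Syn1CreNeg, without overlap. Gria2 ranged from 579 to 751 (median 639) and from 791 to 879 (median 811), also without overlap. Gria1 ranged from 323 to 456 (median 420) and from 215 to 326 (median 280), so that 1 Syn1Cre animal, at 323, lay below the highest Syn1CreNeg animal. Gria3 was not called (-0.23, SE 0.11, edgeR adjusted p = 0.107). Calls were frequent here, at 2689 of 8613 loci (31.2%), 1257 higher and 1432 lower.

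Counting each position once per animal changed the calls in Syn1Cre against Syn1CreNeg: Gria1 became 0.28 (edgeR adjusted p = 0.0543) and Gria3 -0.49 (edgeR adjusted p = 0.000966). That count depends on depth, with a median of 865698 insertions per table in Syn1Cre and 268445 in Syn1CreNeg. Gria2 had 1.72 to 2.26 lines per distinct position in Syn1Cre and 1.11 to 1.8 in Syn1CreNeg. The part of depth in these changes was not tested. Within animals 4 to 6 of both groups, which the labels list in another layout than animals 1 to 3, the Gria2 change was -0.29 (edgeR adjusted p = 0.104), and within animals 1 to 3 it was -0.42 (edgeR adjusted p = 0.0214). The astrocyte marker loci moved much more than these members: 15 of 16 tested were lower in Syn1Cre, with a median log2 change of -1.21, and their summed level was 1177 to 3540 IPM against 3570 to 4782 in Syn1CreNeg. Of the neuron markers, 7 of 16 were higher and 1 was lower. Their part in the changes of the Gria loci was not tested. In bulk tissue, fewer cells of a type and fewer insertions per cell cannot be told apart.

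GFAPCre differed from GFAPCreNeg at Gria2 alone among the 4 loci by this test. Gria2 fell by 0.37 (SE 0.09, edgeR adjusted p = 0.00666), from 913 to 988 (median 948) IPM in GFAPCreNeg to 632 to 813 (median 748) in GFAPCre, without overlap; 766 of 9203 loci passed (8.32%). With the pool as a block, in the animals of both groups that share one, the change was -0.31 and no longer passed (edgeR adjusted p = 0.312), and 42 loci passed in all. Gria1 (0.18, edgeR adjusted p = 0.299), Gria3 (-0.17, edgeR adjusted p = 0.365) and Gria4 (0.29, edgeR adjusted p = 0.170) did not pass. Astrocyte markers were lower in GFAPCre at 7 of 17 loci tested. Their summed level was 5364 IPM in GFAPCreNeg animal 6 and 2671 to 3307 in the other 5, and without that animal Gria2 was at -0.38 (edgeR adjusted p = 0.00260). Between the Cre-negative groups no member was called (-0.24, -0.20, 0.04 and -0.34 for Gria1 to Gria4, edgeR with Benjamini-Hochberg adjustment), and 2 of 7040 loci passed (0.0284%), although 823 had an unadjusted p under 0.05.

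**Figure D5:**
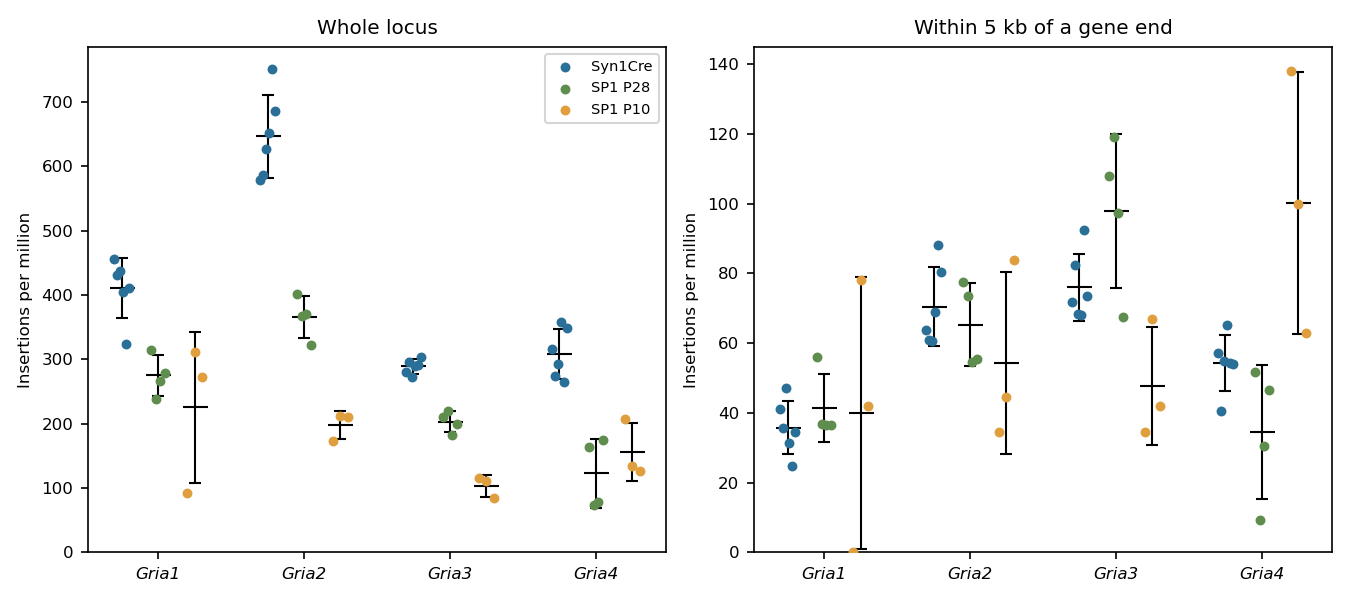
IPM (insertions per 1000000 insertions) in the whole locus and within 5 kb of a gene end, for Syn1Cre and both SP1 groups; points are animals and bars give mean and SD. The whole Gria2 and Gria3 loci separate all 3 groups, and within 5 kb of the ends most groups overlap.

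All 4 loci had fewer insertions in the SP1 groups than in Syn1Cre. At P28, Gria4 fell by 1.18 (SE 0.19, edgeR adjusted p = 6.40e-06), Gria2 by 0.83 (SE 0.14, edgeR adjusted p = 9.09e-06), Gria1 by 0.56 (SE 0.14, edgeR adjusted p = 0.00171) and Gria3 by 0.51 (SE 0.14, edgeR adjusted p = 0.00300). At P10, Gria2 fell by 1.70 (SE 0.18, edgeR adjusted p = 7.18e-09), Gria3 by 1.49 (SE 0.22, edgeR adjusted p = 2.22e-06), Gria4 by 1.00 (SE 0.22, edgeR adjusted p = 0.000456) and Gria1 by 0.85 (SE 0.23, edgeR adjusted p = 0.00290). Both comparisons use the same Syn1Cre animals. Gria2 stood at 401, 367, 371 and 322 IPM at P28 and at 173, 212 and 210 at P10, all below the lowest Syn1Cre animal at 579. Gria1 at P10 was uneven, at 92.1, 312 and 273, and without the first of these animals its change was -0.49 (edgeR adjusted p = 0.0770).

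With levels scaled to all insertions, most called loci moved the other way. Of 12053 loci tested at P28, 6250 passed (51.9%), 5023 of them higher, and the median log2 change was 0.42. Of 12787 at P10, 4791 passed (37.5%), 3648 of them higher, with a median of 0.27. Under TMM scaling, which centres the changes, the share of called loci that were higher was 50.9% in place of 80.4% at P28 and 49.3% in place of 76.1% at P10, and all 4 Gria loci stayed lower and called in both, where they fell by 1.04, 1.32, 1.00 and 1.66 at P28 and changed by -1.38, -2.24, -2.02 and -1.54 at P10. Relative to those medians the changes at P28 were -0.98, -1.25, -0.93 and -1.60 for Gria1 to Gria4, and at P10 -1.12, -1.97, -1.76 and -1.27. With each position counted once per animal, the P28 changes shrank to -0.10 for Gria1 (edgeR adjusted p = 0.577), -0.23 for Gria2 (edgeR adjusted p = 0.193) and -0.25 for Gria3 (edgeR adjusted p = 0.153), and Gria1 at P10 to -0.38 (edgeR adjusted p = 0.192). Here too depth differed, with a median of 198262 insertions per table at P28 and 865698 in Syn1Cre. Gria2 had 1.14 to 1.44 lines per distinct position at P28 and 1.72 to 2.26 in Syn1Cre. The part of depth was not tested. Astrocyte markers were higher at 13 of 19 loci at P28 and at 2 of 19 at P10, with summed levels of 1887 to 3906 and 1720 to 2027 IPM; their part was not tested.

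Near the ends of the genes the result depended on the scaling. Within 5 kb of either gene end and scaled to all insertions, none of the 4 passed at P28: 0.18 for Gria1 (edgeR adjusted p = 0.564), -0.15 for Gria2 (edgeR adjusted p = 0.593), 0.28 for Gria3 (edgeR adjusted p = 0.264) and -0.43 for Gria4 (edgeR adjusted p = 0.149). On that scale most called windows were higher, with 4833 of 8044 past the threshold (60.1%), 4498 of them higher, and a median of 0.84. That share of 93.1% higher was 51.2% under TMM, and at P10 90.3% became 43.6%. At P10 on the same scale Gria4 rose by 0.86 (SE 0.31, edgeR adjusted p = 0.0244), close to the median of 0.75 over 8722 gene ends, of which 3747 passed (43.0%). Its levels there were 138, 100 and 62.9 IPM against 40.6 to 65.2 in Syn1Cre, overlapping by 1 animal. Leaving out the first or the second P10 animal ended the Gria4 call (0.57, edgeR adjusted p = 0.307, and 0.85, edgeR adjusted p = 0.0833). Under TMM, which sets each window against the typical window, all 4 were lower and called at P28: -0.71 for Gria1 (edgeR adjusted p = 0.0129), -1.04 for Gria2 (edgeR adjusted p = 0.000114), -0.63 for Gria3 (edgeR adjusted p = 0.00562) and -1.31 for Gria4 (edgeR adjusted p = 7.73e-05). At P10 under TMM, Gria2 (-1.48, edgeR adjusted p = 0.00102) and Gria3 (-1.78, edgeR adjusted p = 6.71e-05) were lower, and Gria1 (-0.97, edgeR adjusted p = 0.0751) and Gria4 (-0.28, edgeR adjusted p = 0.441) did not pass. With each position counted once and no TMM, Gria1 (0.84, edgeR adjusted p = 0.0109) and Gria3 (0.82, edgeR adjusted p = 0.00533) were higher at P28, at the same difference in depth. No single direction is therefore given for the ends of these genes. In BrokenHeart against C57bl6J only 128 gene ends passed the low-count filter, none of them a member's (67.2% of those tested were called, of which 38.4% were higher, or 69.7% by DESeq2).

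Around the known start of Gria2, the 5 kb on each side held 98.9 ± 14.6 IPM in Syn1Cre (n = 6), 94.5 ± 15.3 in SP1 at P28 (n = 4) and 61.8 ± 25.1 in SP1 at P10 (n = 3). As a share of the locus that was 15% of 3586 insertions, 27.4% of 380 and 31.5% of 54. Around the start of Gria4 it was 51.3 ± 7.64 in Syn1Cre (n = 6), 33.2 ± 18.2 at P28 (n = 4) and 100 ± 37.6 at P10 (n = 3), or 16.2% of 1780, 26.2% of 160 and 64.3% of 42 insertions in the locus. Both promoters printed above lie inside these windows.

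Between the 2 ages, Gria2 was higher at P28 than at P10 by 0.87 (SE 0.24, edgeR adjusted p = 0.0213) and Gria3 by 0.97 (SE 0.28, edgeR adjusted p = 0.0254), with levels of 211, 220, 182 and 199 IPM for Gria3 at P28 and 115, 111 and 83.9 at P10. Neither locus overlapped between ages. The P10 values rest on 15, 19 and 20 insertions in Gria2 and 10, 10 and 8 in Gria3, in tables of 86842 to 95331 insertions. All these animals received virus at birth or 1 day later, so age and time since the virus cannot be told apart. Gria1 (0.29, edgeR adjusted p = 0.501) and Gria4 (-0.17, edgeR adjusted p = 0.739) did not pass, and 383 of 3460 loci did (11.1%), of which 44.6% were higher at P28 (66.7% under TMM). Leaving out P28 animal 1 or any single P10 animal ended both calls, with adjusted p between 0.0668 and 0.221 by edgeR.

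In Rbp4Cre_TRAP against Syn1Cre, Gria4 fell by 1.47 (SE 0.30, edgeR adjusted p = 0.00209), with 52.6, 59.6, 175 and 246 IPM on 3, 3, 7 and 6 insertions, against 264 to 358 in Syn1Cre. Without Rbp4Cre_TRAP animal 1 or 2 the Gria4 change was -1.14 (edgeR adjusted p = 0.103) and -1.21 (edgeR adjusted p = 0.0802). Gria1 fell short with all animals (-0.76, SE 0.21, edgeR adjusted p = 0.0578) and passed without Syn1Cre animal 5 (-0.81, edgeR adjusted p = 0.0176). Gria2 (-0.12, edgeR adjusted p = 0.821) and Gria3 (-0.63, edgeR adjusted p = 0.186) did not pass, and 129 of 10693 loci did (1.21%), 42.6% of them higher (9.29% under TMM). Under TMM Gria1 (fell by 1.00, edgeR adjusted p = 0.00860) and Gria3 (-0.88, edgeR adjusted p = 0.0360) passed as well. The astrocyte marker loci summed to 536 to 1065 IPM in Rbp4Cre_TRAP, with Gjb6, Aldoc and Ntsr2 at 0. Of the neuron marker loci, those of the inhibitory-neuron genes Gad1, Slc32a1 and Dlx2 were at 0 there, in shallow tables of 24408 to 57014 insertions. The same list holds Gad2, Dlx1 and Erbb4, whose loci were not at 0. The 20 neuron loci together summed to 4892 to 6350 IPM against 5376 to 5927 in Syn1Cre. The part of the marker loci in the Gria4 result was not tested.

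In Frontflip_GFAPCre against GFAPCre no member passed, with changes from -0.10 for Gria4 to 0.28 for Gria3 (edgeR adjusted p = 0.406), and 159 of 10526 loci did (1.51%), 75.5% of them higher (85.9% under TMM). Frontflip_GFAPCre against Frontflip_GFAPCreNeg gave 78 of 1286 loci (6.07%), 20.5% of them higher (72.2% under TMM), and no member, with 7, 14, 5 and 2 insertions in the Cre-negative group for Gria1 to Gria4.

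C57bl6J was lower than both Cre lines in all 4 loci by point estimates scaled to all insertions, though relative to the median of all loci Gria1 was at 0.00 against GFAPCre. Against Syn1Cre the changes were -0.35 (edgeR adjusted p = 0.195), -0.30 (edgeR adjusted p = 0.217), -0.51 (edgeR adjusted p = 0.0750) and -0.44 (edgeR adjusted p = 0.135) for Gria1 to Gria4, none past the threshold, beside a median of -0.16 and 54 of 14445 loci called (0.374%), 68.5% of them higher (97.4% under TMM). Without Syn1Cre animal 5, Gria1 (-0.40, edgeR adjusted p = 0.0312), Gria3 (-0.51, edgeR adjusted p = 0.00720) and Gria4 (-0.48, edgeR adjusted p = 0.0245) passed, as did 409 loci in all. Against GFAPCre, Gria3 fell by 0.53 (SE 0.12, edgeR adjusted p = 0.00371) and Gria2 by 0.48 (SE 0.11, edgeR adjusted p = 0.00414), beside a median of -0.11 and 2002 of 13256 loci called (15.1%), 33.6% of them higher (56.1% under TMM). The Gria3 levels were 202 and 203 IPM in C57bl6J and 243 to 340 in GFAPCre. Leaving out C57bl6J animal 1 or 2 ended both calls (Gria2 edgeR adjusted p = 0.114 and 0.0699, Gria3 edgeR adjusted p = 0.0762 and 0.0991), in fits that assume the lone C57bl6J animal to vary like the GFAPCre animals. Of the astrocyte markers, 15 of 19 were lower in C57bl6J than in GFAPCre; their part was not tested.

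In N2a cells, a single combined table, Gria1 and Gria4 lay below the mean of every brain group, and Gria2 and Gria3 were near the lowest brain animals (120 IPM for Gria2 in BrokenHeart, 83.9 for Gria3 in SP1 at P10), leaving out the shallow Frontflip_GFAPCreNeg tables. Gria2 had 140 IPM (95% Poisson interval 115 to 168, counting error only), Gria3 83.1 (64.4 to 105), Gria1 29.8 (19.1 to 44.3) and Gria4 17.4 (9.49 to 29.1). There is no replicate and no test. The strand skew of the brain tables was not seen in Gria2, where 52.2% of 113 insertions were on the plus strand (95% Wilson interval 43.1% to 61.2%), or in Gria3, where 49.3% of 67 were (37.7% to 60.9%). In Gria4 the plus share was 78.6% of 14 insertions (52.4% to 92.4%), the side opposite to the brain tables.

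The partners of the receptor were taken from a list of 28 genes: 13 auxiliary subunits, 8 scaffold and trafficking proteins, 6 extracellular organisers and the RNA-editing enzyme Adarb1, which edits the Gria2 transcript. In Syn1Cre against Syn1CreNeg, 8 of 23 tested were higher and 1 lower, with a list median of 0.30 beside 0.04 over all loci, of which 31.2% were called. Grip2, a scaffold that binds GluA2, rose by 1.18 (SE 0.22, edgeR adjusted p = 0.000151) from 23.6 to 56.7 IPM on average, and the auxiliary subunit gene Cacng2 (stargazin) by 0.86 (SE 0.15, edgeR adjusted p = 4.92e-05) from 77.1 to 143. Nptx1, a secreted pentraxin that clusters AMPA receptors, rose by 1.25 (edgeR adjusted p = 0.0108) from a low 16.1 ± 12.6 to 26.8 ± 7.76 IPM (SD). Cacng8 fell by 0.46 (edgeR adjusted p = 0.0198). In Syn1Cre against GFAPCre, 3 of 26 partners passed, beside 2.41% of all loci. Grip2 (0.70) and the auxiliary subunit gene Shisa6 (0.62) were higher and Lrrtm4, a synapse organiser, was lower (-0.48). In GFAPCre against GFAPCreNeg the auxiliary subunit gene Cnih3 (0.50) was the only one of 24 to pass, beside 8.32% of all loci.

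In the SP1 comparisons partners were called in both directions. At P28, 6 of 25 were higher and 8 lower than in Syn1Cre, with a median of -0.14 beside 0.42 over all loci, of which 51.9% were called; the partners' share called is near that background. Cnih2, an auxiliary subunit gene, rose by 2.22 (SE 0.24, edgeR adjusted p = 1.10e-08) from 20.5 to 106 IPM, Dlg4, which encodes the postsynaptic scaffold PSD-95, by 1.66 from 53 to 163, and Cacng5 by 0.87. Dlg2, another scaffold gene, fell by 1.15 from 2641 to 1181, Lrrtm4 by 1.13 and Dlg1 by 1.02. At P10, where 37.5% of all loci were called, 4 of 26 were higher, among them Cnih2 (2.69), Cacng4 (1.90) and Cacng5 (1.67), and 8 were lower, among them Lrrtm4 (-2.43), the trafficking ATPase gene Nsf (-1.79) and Syndig1 (-1.58). Within 5 kb of gene ends at P28, 9 of 19 partners were higher and 2 lower, scaled to all insertions, no more than the 60.1% of all gene ends called; the higher ones included Cnih2 (2.32), Grip1 (1.63) and Dlg4 (1.63). Between ages, 2 of 14 partners passed, beside 11.1% of all loci called. Lrrtm4 was higher (1.30) and Cacng4 lower (-1.23) at P28. These partner counts are scaled to all insertions and were not refitted under TMM.

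In BrokenHeart against C57bl6J, 6 of 12 partners tested were lower and none higher, with a median of -0.59 beside 0.11 over all loci, of which 39.7% were called. Dlg1 fell by 1.07 (SE 0.20, edgeR adjusted p = 3.01e-05) from 601 to 279 IPM, Lrrtm2 by 1.07 from 211 to 96.9 and Dlg2 by 0.85 from 2667 to 1413. In C57bl6J against GFAPCre, 4 of 27 partners passed, near the background of 15.1% of all loci called. Shisa6 was higher (0.89), and Cacng8 (-0.43), Lrrtm4 (-0.42) and Cacng3 (-0.41) were lower. None of the partners passed in Rbp4Cre_TRAP against Syn1Cre (24 tested, beside 1.21% of all loci called). The same held for Frontflip_GFAPCre against GFAPCre (25 tested, 1.51%) and C57bl6J against Syn1Cre (28 tested, 0.374%), all by edgeR. Of the other glutamate receptor genes, 3 of 5 kainate receptor loci and 1 of 4 NMDA receptor loci tested were higher in Syn1Cre than in Syn1CreNeg and none lower, beside 31.2% of all loci called. Against Syn1Cre, SP1 at P28 had 2 of 5 kainate and 2 of 6 NMDA loci lower and 1 higher in each family, beside 51.9% of all loci called. SP1 at P10 had 2 of 5 kainate and 4 of 5 NMDA loci lower and 1 higher in each, beside 37.5% called and 1143 of 12787 lower.

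The loci whose group means most resembled each member were found over 10 brain groups and 13040 loci with at least 200 insertions, as Pearson r of log2 levels. For Gria1 they were Inpp4b (r = 0.930), Plcxd3 (0.922) and Car10 (0.921), and for Gria2 Gm52229 (0.982), 1700066M21Rik (0.976) and Emc4 (0.970). For Gria3 they were Dclk1 (0.986), Tdrd3 (0.974) and Dmd (0.973), and for Gria4 Map1b (0.972), Tnfsf13b (0.947) and Slc18a2 (0.934). With 10 groups that differ in construct and readout, such values are a description only.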

How the data were processed

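Insertions were read from RNA in all tables but the BrokenHeart ones. The authors deposited 1 table per animal, in which each line is 1 insertion with its position, read count, strand and barcode, and the submitters' processing notes name Novoalign, Bowtie2 and the mm10 build, with roles and versions not given in the sources used here. From these tables, lines were counted per locus (gene body with 10 kb on each side), so a position hit under several barcodes counted several times. BrokenHeart intervals were taken as starting 1 base later than the others, the offset at which 78.0% to 79.4% of their positions met one of the RNA-read tables. Depth ranged from 2341 to 2186743 insertions per animal. Each comparison used only its own groups in edgeR 4.0.16 (quasi-likelihood test, R 4.3.3), with the table's total as library size, a low-count filter and Benjamini-Hochberg adjustment over all loci tested at 0.05. DESeq2 1.42.0, TMM factors and other counting rules were alternatives. The test was also run on simulated counts with 3-fold changes, as many up as down. Smaller changes, and the mostly higher calls of the SP1 comparisons, were not simulated. Because strand was not known for every gene, gene starts were replaced by 5 kb around either gene end. Same-numbered animals did not deviate together (correlations -0.21 to 0.17), so replicate numbers were not used as pairs. The labels give separate animals as replicates. Partners named are at most 3 higher and 3 lower per comparison, those called with the largest change. The members and lists were chosen with earlier results of these data known. Intervals and floors cover counting error only.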

Additional observations from a re-analysis of the deposited data

Results flagged for a closer look

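Between the 2 ages of the SP1 animals the levels differed at 2 of the 4 loci, while 383 of 3460 loci were called in all (11.1%). Only SP1 animals entered this test. Gria2 was higher at P28 than at P10 by 0.87 on the log2 scale (edgeR adjusted p = 0.0213), with all 4 P28 animals above all 3 P10 animals, and Gria3 by 0.97 (edgeR adjusted p = 0.0254), likewise. Over the alternatives that ended these calls the adjusted p from edgeR lay between 0.0557 and 0.221. A test for a single distant value over the 4 loci flagged no animal in any of 24 sets of 4 or 6 animals. With so few animals per set it can find only very distant values, so influential animals are not excluded. Leaving out Syn1Cre animal 5 or GFAPCre animal 3 changed calls of members in other comparisons.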

How the results depend on the processing

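Of 969 alternative values for the 4 loci, 866 kept direction and side of the threshold, 31 lost a call, 31 gained one and 41 changed sign; of 257 alternative counts of called loci, 170 stayed within 1.5 times. The cause was not tested for any of the changes below. Depth limits BrokenHeart, Rbp4Cre_TRAP and Frontflip_GFAPCreNeg most, and SP1 at P10 is also shallow.

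Leaving out 1 animal at a time, the called loci numbered 154 to 830 for Syn1Cre against GFAPCre, 2050 to 3327 for Syn1Cre against Syn1CreNeg, 420 to 1107 for GFAPCre against GFAPCreNeg, 5657 to 6534 for SP1 at P28 and 3766 to 5036 for SP1 at P10 against Syn1Cre, and 9 to 544 between the ages. They numbered 322 to 886 for BrokenHeart against C57bl6J, 62 to 213 for Rbp4Cre_TRAP, 17 to 414 for Frontflip_GFAPCre against GFAPCre, 24 to 71 against Frontflip_GFAPCreNeg, 2 to 409 for C57bl6J against Syn1Cre, 506 to 2343 against GFAPCre and 1 to 338 between the Cre-negative groups. For gene ends they were 4378 to 5036 (P28), 3098 to 3873 (P10) and 17 to 294 (BrokenHeart). Changes of sign among the members in these runs, all without a call, were Gria3 in Syn1Cre against GFAPCre (0.00 without GFAPCre replicate 4 and 0.03 without replicate 6, in a range of -0.06 to 0.03), Gria1 (-0.07) and Gria4 (0.08) between SP1 ages without P10 replicate 1 (Gria4 in a range down to -0.40), Gria1 in Frontflip_GFAPCre against GFAPCre (-0.02 and -0.00 without GFAPCre replicates 3 and 5, -0.16 without Frontflip_GFAPCre replicate 1, in a range of -0.16 to 0.12), Gria2 (0.19) and Gria1 (0.08) against Frontflip_GFAPCreNeg without its replicates 1 and 3 (Gria1 in a range down to -0.39), Gria1 in C57bl6J against GFAPCre (0.00 without C57bl6J replicate 2, in a range down to -0.23), Gria3 between the Cre-negative groups (-0.01 without GFAPCreNeg replicate 2 or 5) and the ends of Gria1 at P10 (-0.72 without P10 replicate 2, in a range of -0.72 to 0.72). GFAPCre against GFAPCreNeg gained Gria4 without GFAPCre replicate 3 (0.38, edgeR adjusted p = 0.0148).

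Counts moved with the animals used: 1837 loci for Syn1Cre animals 1 to 3 against GFAPCre, 985 for animals 1 to 3 of Syn1Cre and Syn1CreNeg, and 42 for the GFAPCre comparison with shared pools as a block. Gene bodies without flanks gave 2853 (P28), 2245 (P10), 230 (P28 against P10), 78 (Frontflip_GFAPCre against GFAPCre, where Gria1 was -0.02) and 9 (Cre-negative groups). DESeq2 gave 167 between SP1 ages, 196 for Rbp4Cre_TRAP, 686 for C57bl6J against GFAPCre and 17 between the Cre-negative groups, and TMM gave 226 for Rbp4Cre_TRAP and 117 for C57bl6J against Syn1Cre. Without the low-count filter there were 232 between ages, where Gria2 and Gria3 no longer passed (edgeR adjusted p = 0.0557 and 0.0729), 298 and 35 for the Frontflip comparisons, 185 for C57bl6J against Syn1Cre and 45 between the Cre-negative groups. Counting distinct positions gave 183 between ages, 382 for Rbp4Cre_TRAP, 289 for Frontflip_GFAPCre against GFAPCre, 87 for C57bl6J against Syn1Cre, 5 between the Cre-negative groups and 19 for BrokenHeart gene ends. Insertions with at least 2 reads gave 484 for BrokenHeart, 62 for Rbp4Cre_TRAP, 101 and 29 for the Frontflip comparisons, 6 for C57bl6J against Syn1Cre and 4 between the Cre-negative groups. Single strands gave 415 (plus, where Gria1 and Gria3 gained a call and Gria2 lost it) and 377 (minus) for BrokenHeart, chosen after seeing the data, as were the runs within animals 1 to 3 and 4 to 6. Windows of 1 kb gave 2710, 2373 and 8 gene ends for P28, P10 and BrokenHeart.

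With at least 2 reads per insertion, members changed sign in Gria3 of Syn1Cre against GFAPCre (0.00), Gria2 of Frontflip_GFAPCre against GFAPCre (0.04) and Gria1 of C57bl6J against GFAPCre (0.03). With distinct positions they did so in Gria4 between SP1 ages (0.18), Gria1 of BrokenHeart (0.07), Gria2 of Rbp4Cre_TRAP (0.43), Gria2 of Frontflip_GFAPCre against GFAPCre (0.25), Gria2 between the Cre-negative groups (0.01) and the ends of Gria2 (0.15) and Gria3 (0.63) at P10. On the minus strand Gria1 of BrokenHeart was 1.82. Against Frontflip_GFAPCreNeg, Gria1 and Gria2 were 0.32 and 0.35 under TMM and 0.56 and 0.58 by DESeq2, and Gria2 of Frontflip_GFAPCre against GFAPCre was 0.02 by DESeq2. At gene ends the scaling turned Gria1 and Gria3 at P28 (-0.71 and -0.63 under TMM, -0.78 and -0.70 by DESeq2) and Gria1 and Gria4 at P10 (-0.97 and -0.28 under TMM, -1.07 and -0.37 by DESeq2). The P28 values there passed the threshold, and Gria2 and Gria4 at P28 and Gria2 and Gria3 at P10 gained calls under both scalings.

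With the replicate number as a block, the counts moved to 245 for Frontflip_GFAPCre against GFAPCre (Gria2 0.02, Gria4 0.09), 1921 for C57bl6J against Syn1Cre, 4 between the Cre-negative groups and 12 BrokenHeart gene ends, and the ends of Gria1 at P10 became -0.03. The block gave calls to Gria1 (-0.46), Gria3 (-0.51) and Gria4 (-0.36) in C57bl6J against Syn1Cre and to Gria1 (-0.84) in Rbp4Cre_TRAP.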
